A study of Mus musculus with 24 samples.

Results

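The p53 family and its DNA damage checkpoint partners were examined here as 10 genes, Trp53, Trp63, Trp73, Mdm2, Mdm4, Cdkn1a, Chek1, Chek2, Atm and Atr, which were chosen by name from the 55401 genes of a mouse oocyte RNA sequencing count table. The study asked how low-dose microplastic exposure affects oocyte maturation through histone deacetylases (HDACs), enzymes that remove acetyl groups from histones. Its 12 RNA columns form 6 groups of 2: a control (con), oocytes exposed to the microplastics (PSMPs) in the animal (in vivo PSMPs), a control for culture (con-in vitro), oocytes exposed in culture (in vitro PSMPs), oocytes given SAHA, a hydroxamate inhibitor of histone deacetylases, and exposed oocytes that overexpressed Hdac3 (PSMPs & OE-Hdac3). The labels give no strain, age, dose or time, and do not tie SAHA to a control or the overexpressing oocytes to a route of exposure, so both candidates were used for each of them. The series' text states 5 embryos per RNA reaction although every sample is labelled as oocytes, and no source ties the columns of a group to different animals, so the spread behind each p-value is that between these libraries and may be technical.

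The protein p53, encoded by Trp53 in the mouse, is a transcription factor that is made steadily and destroyed quickly: Mdm2, a ubiquitin ligase that is itself a p53 target, marks it for breakdown, and Mdm4, a related protein without strong ligase activity of its own, holds it inactive. DNA breaks activate the kinase ATM, and stalled or single-stranded DNA activates ATR. These act through Chek2 and Chek1 to stop the cell cycle and to free p53, which then switches on targets such as Cdkn1a, the cyclin-dependent kinase inhibitor p21. In oocytes the p63 isoform TAp63, activated through CHK2, is known as the main guard that removes cells with DNA damage, and CHK1 restrains entry into the meiotic divisions.

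Levels are given as CPM, the count scaled to the size of its library, after TMM scaling, a correction for library composition. The pair labelled in vivo PSMPs agreed within sampling noise (chi-square per degree of freedom 0.444, with 15.6% of genes equal) and was counted as 1 sample, which left 11 libraries with totals of 6.22 M to 35.6 M. At least 17 of 18 oocyte markers had counts in every library, with a summed level of 12023 and 13404 CPM in con-in vitro, against at least 23011 in the others. The 100 most abundant genes held 52.2% and 53.3% of the con-in vitro counts and at most 36.1% elsewhere, and the TMM factors of those libraries were the lowest, at 0.542 and 0.572. The 4 control libraries had counts for 11640 to 12843 genes, though the con totals are the deepest, and every treated library for 17559 to 20957. Cumulus and granulosa markers, of cells that surround the oocyte, had counts for 5 or 6 of 20 genes in the 4 control libraries and for 11 to 16 in every treated library. Their summed level was highest in in vivo PSMPs, at 167 CPM; con had sums of 47.5 and 70.8 CPM, and the remaining libraries ranged from 35.8 to 101 CPM. Inha, the inhibin alpha subunit, stood at 59.4 CPM in in vivo PSMPs and 0 in both con libraries, while Amh was at 0 in both con libraries and 0.0258 CPM in in vivo PSMPs. Blood and endothelium markers had counts for 2 to 5 of 10 genes, with sums of 5.93 to 107 CPM. Hdac3 itself read 228 and 336 CPM in PSMPs & OE-Hdac3 and from 7.17 to 37.4 CPM in the other libraries.

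Promoter sequence from RefSeq (GRCm38.p6) was matched for 9 of the 10 genes, in 12 windows of 300 bases that run from 250 before to 50 after an annotated start. Cdkn1a is shown first because it is the textbook p53 target and because its level differed between groups. Its more distal start had, at position -51, a near match to the paired p53 response element, 2 adjacent copies of the p53 decamer with both cores intact and at most 1 mismatch in 20 bases. Such a match was found in 0.05479% of 32851 promoter windows, read on a motif that is its own reverse complement, and in no other window of the 9 genes. A further exact decamer lay at -73. The 250 bases before this start (chr17:29090729-29090978, + strand) are given with the decamers in capitals.
Cdkn1a: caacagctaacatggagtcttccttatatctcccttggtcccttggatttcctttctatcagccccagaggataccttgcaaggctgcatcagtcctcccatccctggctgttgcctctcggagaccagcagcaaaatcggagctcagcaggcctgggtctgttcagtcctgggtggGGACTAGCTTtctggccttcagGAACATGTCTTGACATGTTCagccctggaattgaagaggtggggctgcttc
An exact decamer, present in 8.356% of all windows, was also found before Trp53 (position -75, chr11:69580280-69580297, + strand) and Mdm2 (position -186, chr10:117710931-117710948, - strand). These short stretches are shown because the levels of both genes differed between the same groups, again with the decamer in capitals.
Trp53: ggaaGGACTTGCCCttac
Mdm2: atagGAACTTGCCTagcg
In Chek1 the core motif GGCGGGAA, bound by E2F cell cycle factors and searched on both strands, was matched at position 42 (chr9:36726609-36726620, - strand), as it is in 2.192% of windows, and it is shown because Chek1 had the highest level per length of the 10 genes in in vivo PSMPs, in vitro PSMPs and SAHA.
Chek1: ttttGGCGGGAA
The Trp73 window with the more distal start held the same core at -238 and -103. These matches describe letters in the windows and show no binding, and the counts do not tell which start was used.

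All 10 genes passed the expression filter and were tested with edgeR's quasi-likelihood test, with Benjamini-Hochberg adjustment over all 16736 genes kept and a threshold of 0.05. Levels of Trp53, Cdkn1a, Chek1 and Chek2 differed among the 6 groups in a single test per gene, at adjusted p of 0.00582, 0.0198, 0.007 and 0.0309. These 4 of 10 compare with 33.3% of all genes tested. Mdm2 (0.0519) and Mdm4 (0.0848) did not pass, nor did Trp63 (0.486), Trp73 (0.538), Atm or Atr. The number of members rose without con replicate 1 and fell without any library of in vitro PSMPs, SAHA or PSMPs & OE-Hdac3. The number of all genes called rose and fell in the same fits.

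**Figure D1:**
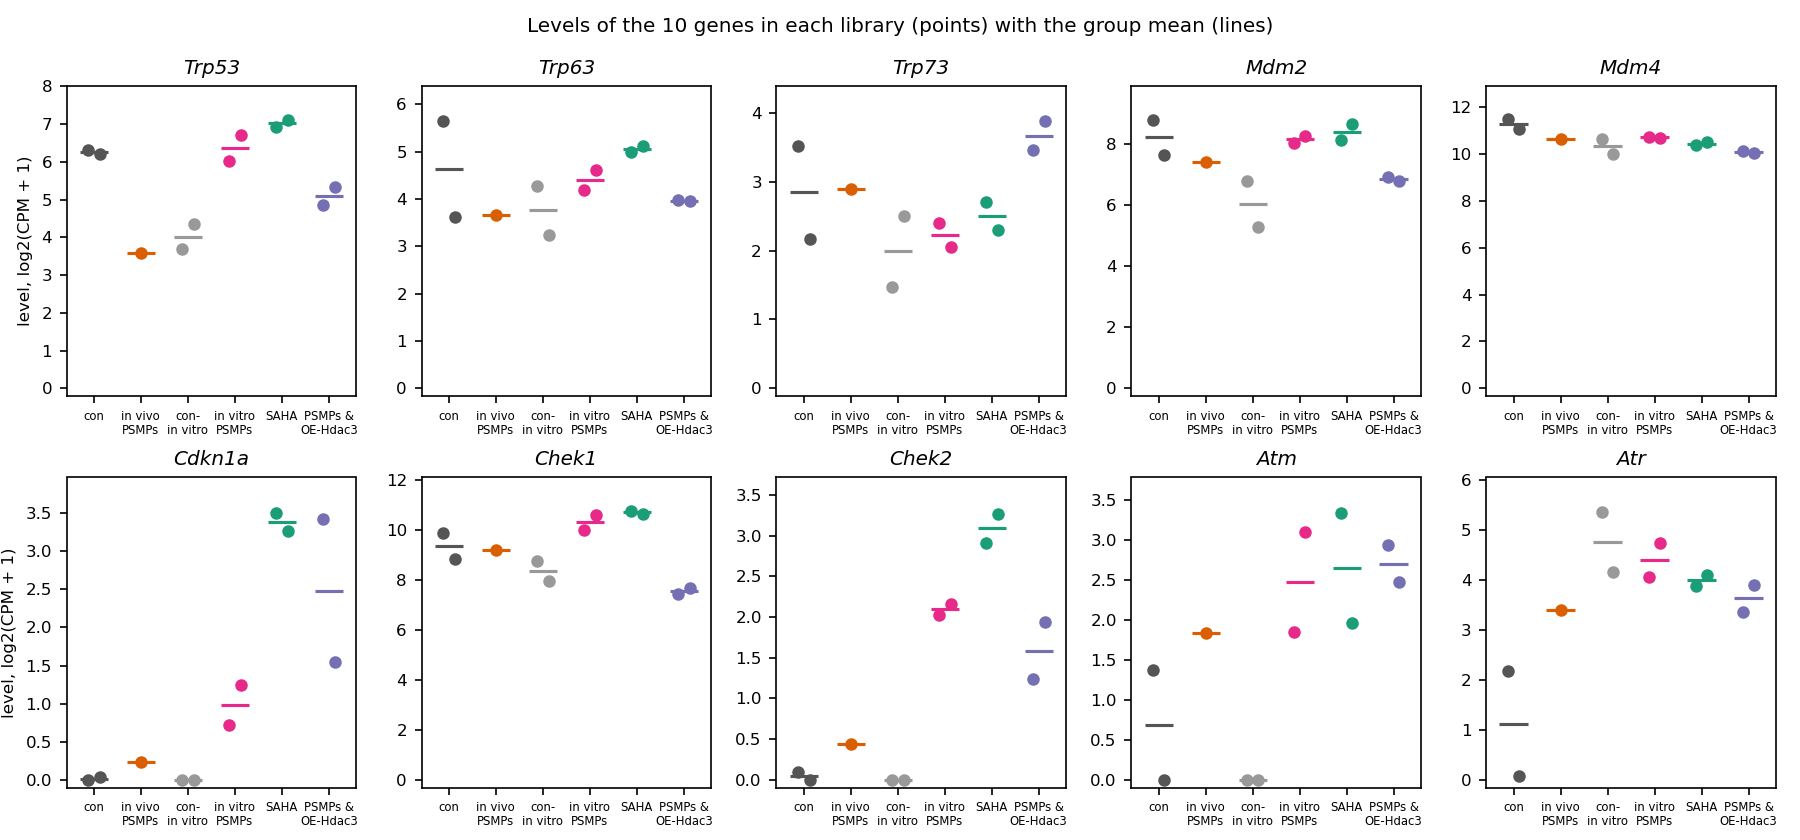
Level of each of the 10 genes in each library, as log2(CPM + 1) on an axis of its own for each gene; points are libraries, lines group means, and the 2 in vivo PSMPs columns are merged into 1 point. Trp53 sits at 11.0 CPM in in vivo PSMPs and at 121 and 137 CPM in SAHA, while Cdkn1a is at or near 0 in the 4 control libraries.

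Trp53 was low in oocytes exposed in the animal and high in oocytes exposed in culture, each against its own control. The gene lies at chr11:69580359-69591873, + strand in the coordinates of the table, whose build is mm10 per the submitters' processing notes, and each position is that of the whole gene with exons and introns. It read 78.4 and 73.4 CPM in con and 11.0 CPM in in vivo PSMPs. In culture it read 11.9 and 19.4 CPM in the control and 64.4 and 103 CPM after exposure, and the SAHA libraries read 121 and 137 CPM. The overexpressing oocytes lay between, at 27.9 and 39.3 CPM. Ordered by mean the groups ran from SAHA (129 ± 11.1 SD, n = 2) through in vitro PSMPs (83.7 ± 27.2), con (75.9 ± 3.58), PSMPs & OE-Hdac3 (33.6 ± 8.04) and con-in vitro (15.6 ± 5.32) to in vivo PSMPs, counted once. The ranges of in vitro PSMPs and con overlapped, and in vivo PSMPs lay within 1 SD of con-in vitro; the other neighbours had separate ranges.

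Exposure in the animal went with a log2 fold change of -2.78 ± 0.61 (SE) in Trp53 against con (edgeR adjusted p = 0.0463), the single member called in this comparison, where 0.287% of all genes were called lower and 4.59% higher. That call rests on a spread borrowed from the other groups. It was lost, with the fold change between -2.85 and -2.74, when any library of in vitro PSMPs (adjusted p = 0.13), SAHA (0.133 and 0.134) or PSMPs & OE-Hdac3 (0.156) was left out or either in vivo PSMPs column was used alone (0.0519 and 0.0521). Each of these fits also read the expression filter again on the columns left, so the genes kept can differ. The call was also lost with the filter read on the merged libraries and no library left out. The summed granulosa markers above were higher in the same comparison, with 11 of the 14 tested fitted above con. Kitl went the other way, at 0.0516 CPM against 0.208 and 9.12 in con. Amhr2, at 4.77 CPM in in vivo PSMPs and at most 0.0651 elsewhere, passed the filter only through in vivo PSMPs. So did Vcan, at 3.25 CPM in in vivo PSMPs and at most 0.911 elsewhere. The side of such genes, and with it part of the 11 of 14, was fixed in advance. The median of all genes stood 0.25 above con on the log2 scale. The part of these markers in the Trp53 difference was not tested. In bulk RNA, fewer cells of a type and less RNA per cell cannot be told apart.

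Exposure in culture went with a log2 fold change of 2.42 ± 0.46 in Trp53 against con-in vitro (edgeR adjusted p = 0.00846). Without in vitro PSMPs replicate 2 the adjusted p was 0.0618. SAHA against con-in vitro gave 3.04 ± 0.47 (adjusted p = 0.0026), which stayed past the threshold under all 21 alternatives tried, whereas against con SAHA gave 0.77 ± 0.44 (0.225). The controls differed from each other: con-in vitro against con gave -2.28 ± 0.46 (adjusted p = 0.0081), with 2 of 10 members called lower in that comparison against 10.5% of all genes lower and 14.7% higher. The exposure effects, which share no library, were compared with each other directly, and the effect in culture minus that in the animal was 5.20 ± 0.79 on the log2 scale (adjusted p = 0.00558). Trp53 was the single member called for that difference, against 4.87% of all genes called higher and 6.4% lower.

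With overexpressed Hdac3, Trp53 stood at -1.32 ± 0.44 on the log2 scale against in vitro PSMPs (edgeR adjusted p = 0.134) and 1.61 ± 0.57 against in vivo PSMPs (0.262), and neither passed. A pseudogene could share reads with Trp53, and a neighbouring gene lies close to it. The pseudogene Trp53-ps held at most 3.96% of the Trp53 count in any library. Wrap53 (chr11:69561758-69580255, - strand), which starts just upstream of Trp53 on the opposite strand, does not overlap it in these coordinates. Its count was 29.7% of the Trp53 count in in vivo PSMPs, 8.68% in con replicate 2 and at most 1.26% elsewhere. The sources used here give no strand setting.

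The other family members did not pass in any comparison. Trp63 (chr16:25683763-25892102, + strand), whose protein guards the oocyte pool, lay 1.34 to 13.5 times below Trp53 in CPM per kb of gene length across the libraries. Its levels were 49.6 and 11.3 CPM in con, 11.7 in in vivo PSMPs, 18.4 and 8.47 in con-in vitro, 17.2 and 23.7 in in vitro PSMPs, 30.9 and 34.0 in SAHA, and 14.8 and 14.5 in PSMPs & OE-Hdac3. The con libraries spanned most of the range of the gene, and its fitted change was -1.38 ± 1.01 for exposure in the animal and 0.61 ± 0.78 for exposure in culture. Trp73 (chr4:154056249-154140208, - strand), whose product is best known in neurons and ciliated cells and in chromosome segregation of oocytes, read 10.4 and 3.5 CPM in con, 6.44 in in vivo PSMPs, 1.78 and 4.64 in con-in vitro, 4.30 and 3.15 in in vitro PSMPs, 5.54 and 3.92 in SAHA, and 10.0 and 13.6 in PSMPs & OE-Hdac3. Its fitted change was -0.11 ± 1.20 in the animal and 0.21 ± 1.00 in culture. Both genes stood higher in con replicate 1 than in con replicate 2.

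Mdm2 (chr10:117688875-117710758, - strand) was higher with exposure in culture and with SAHA than in the control for culture. It read 108 and 38.0 CPM in con-in vitro, 258 and 304 in in vitro PSMPs and 276 and 397 in SAHA. In the remaining groups it read 438 and 199 CPM in con, 166 in in vivo PSMPs and 118 and 109 in PSMPs & OE-Hdac3. Both con-in vitro libraries lay below every other library, replicate 1 only just below the overexpressing pair. The log2 fold change was 1.95 ± 0.55 for in vitro PSMPs (edgeR adjusted p = 0.0443) and 2.2 ± 0.55 for SAHA (0.0254) against con-in vitro, and -2.12 ± 0.55 for con-in vitro against con (0.025). SAHA against con gave 0.08 ± 0.53 (edgeR adjusted p = 0.944).

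In the animal Mdm2 gave -0.94 ± 0.67 (adjusted p = 0.434), and the difference between the exposure effects was 2.89 ± 0.89 (0.0688). The call for exposure in culture was lost when con-in vitro replicate 2 or any library of in vitro PSMPs, SAHA or PSMPs & OE-Hdac3 was left out (adjusted p from 0.073 to 0.172). That for SAHA was lost without con-in vitro replicate 2 or any library of the same 3 groups (0.0519 to 0.139), and that between controls without con replicate 1 (0.0675) or con-in vitro replicate 2 (0.0896).

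Mdm4 (chr1:132959484-133030561, - strand) was abundant and varied less than Mdm2 or Trp53. It read 2823 and 2123 CPM in con, 1565 in in vivo PSMPs, 1590 and 1026 in con-in vitro, 1704 and 1644 in in vitro PSMPs, 1316 and 1441 in SAHA, and 1121 and 1047 in PSMPs & OE-Hdac3. The highest library was 2.75 times the lowest, against 11.5 times for Mdm2 and 12.4 times for Trp53. No comparison passed: the log2 fold change was 0.36 ± 0.30 for in vitro PSMPs, 0.08 ± 0.30 for SAHA against con-in vitro and -0.66 ± 0.38 in the animal, and the nearest to the threshold was con-in vitro against con, at -0.92 ± 0.31 (edgeR adjusted p = 0.055). That difference passed in 7 of 21 alternatives (adjusted p from 0.00171 to 0.213 over all of them), and SAHA against con, at -0.84 (0.069), in 7 of 21 as well (0.027 to 0.264). With libraries scaled by total counts alone, in vitro PSMPs stood 1.36 above con-in vitro and passed (0.00762), while the median of all genes in that comparison moved from 0.71 to 1.70. Per kb of gene length, Mdm4 exceeded Mdm2 5.06 and 9.28 times in con-in vitro, 1.86 to 2.27 times in in vitro PSMPs and 1.25 and 1.64 times in SAHA, with 2.22 to 3.67 times in the other libraries.

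**Figure D2:**
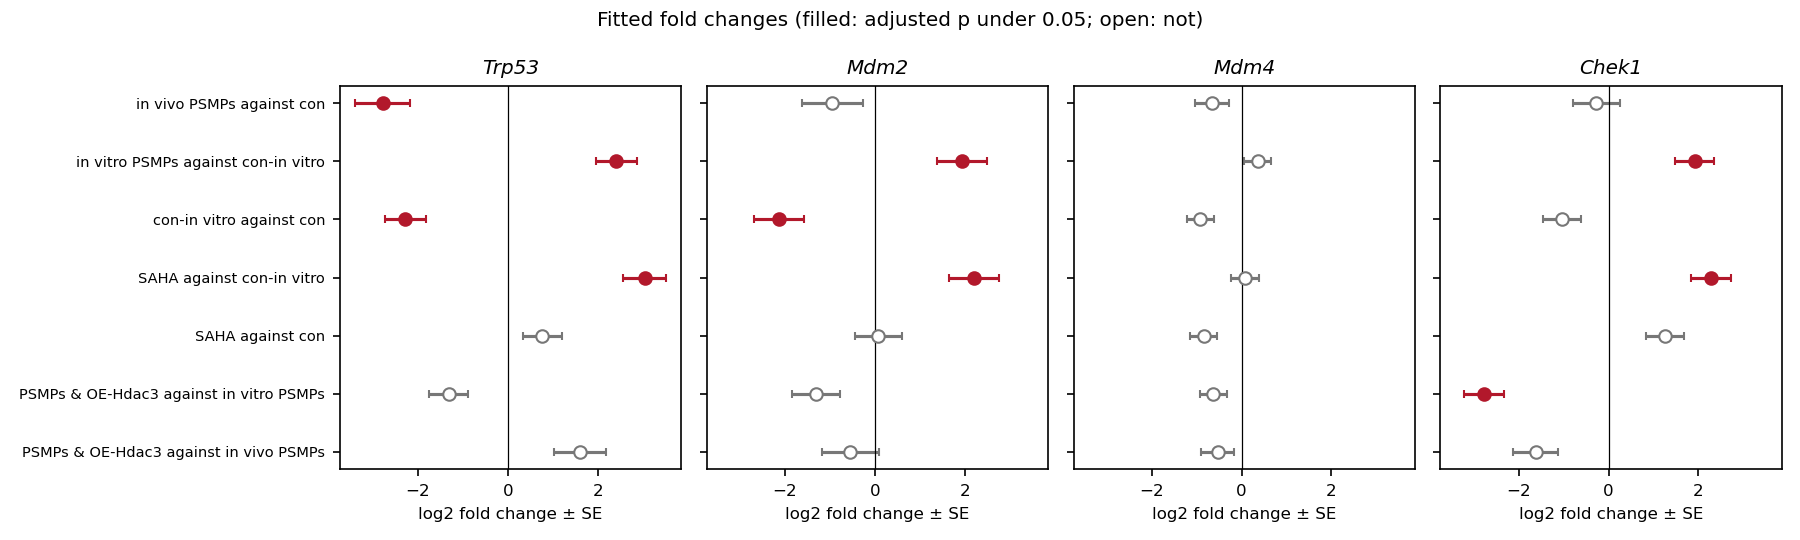
Fitted log2 fold changes with their standard errors (x axis) in 7 comparisons (y axis) for the 4 genes Trp53, Mdm2, Mdm4 and Chek1; filled points passed the adjusted p threshold and open points did not. Trp53, Mdm2 and Chek1 are higher in both treatments against con-in vitro, where the 3 fold changes run from 1.92 to 3.04, and Mdm4 passed in no comparison.

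Relative to all genes, the 3 changes in culture were smaller. For exposure in culture the median gene stood at 0.71 on the log2 scale, so Trp53 lay 1.71, Mdm2 1.24 and Chek1 1.21 above it. With library totals the same distances were 1.66, 1.24 and 1.18. Mdm4 stood at -0.35 from the median gene with TMM factors and at -0.34 with library totals. The lower oocyte marker sum and TMM factors of con-in vitro, given above, move with every comparison against that control, and their part in these changes was not tested.

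Cdkn1a (chr17:29090976-29100727, + strand) was nearly absent from all 4 control libraries and reached its highest counts with SAHA. It had 0 and 1 counts in con, 0 and 0 in con-in vitro, 7 in in vivo PSMPs, and 8 and 17 in in vitro PSMPs. With SAHA it had 182 and 152 counts, or 10.3 and 8.64 CPM, and with overexpressed Hdac3 it had 150 and 21, or 9.76 and 1.91 CPM. No counts in con-in vitro, the shallowest group, allow up to 0.427 CPM over its libraries, by the rule that a count of 0 allows 3 counts and for counting error only. By this bound the SAHA mean was at least 22.2-fold higher than con-in vitro (edgeR adjusted p = 0.0251). Such bounds, here and below, divide a group mean by the level that a count of 0 allows and leave out the spread between libraries. The 4 control libraries had counts for 11640 to 12843 genes and the treated ones for 17559 to 20957, a split that runs with that of Cdkn1a, and its part in the difference was not tested.

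Against con, with its single count, the ratio of Cdkn1a with SAHA was 640 (95% counting interval 114 to 25366; adjusted p = 0.014). In vitro PSMPs was at least 2.37-fold higher than its control and did not pass (0.115), nor did in vivo PSMPs against con, with a ratio of 12.2 (1.57 to 550; 0.269). With overexpressed Hdac3, replicate 1 lay between the SAHA libraries and replicate 2 just above those of in vitro PSMPs, and the comparison with in vitro PSMPs gave 0.343. Without SAHA replicate 1 or 2 neither SAHA call held (0.0673 to 0.104), and that against con-in vitro was also lost without either library of con-in vitro (0.0562 and 0.0671) or of in vitro PSMPs (0.0597 and 0.0598).

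Chek1 (chr9:36708482-36727065, - strand), the kinase downstream of ATR, was higher with exposure in culture and with SAHA than in the control for culture, and was lowest with overexpressed Hdac3. It read 431 and 251 CPM in con-in vitro, 1023 and 1550 in in vitro PSMPs and 1732 and 1595 in SAHA. The con libraries had 941 and 456 CPM, in vivo PSMPs 578, and PSMPs & OE-Hdac3 171 and 205. The overexpressing pair was the lowest of all groups and did not overlap any other. Exposure in culture gave a log2 fold change of 1.92 ± 0.44 (edgeR adjusted p = 0.0194) and SAHA 2.29 ± 0.44 (0.00822), both against con-in vitro.

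PSMPs & OE-Hdac3 against in vitro PSMPs gave -2.78 ± 0.45 in Chek1 (edgeR adjusted p = 0.015), the single member called there, where 2.98% of all genes were called lower and 1.85% higher. This call was lost without in vitro PSMPs replicate 2 (0.104) and without either overexpressing library (0.212 and 0.166). In the animal Chek1 stood at -0.27 ± 0.52 (0.828), SAHA against con gave 1.25 ± 0.43 (0.0584), and the difference between exposure effects was 2.19 ± 0.70 (0.0755). The call for exposure in culture was lost without con-in vitro replicate 2 (0.0989) or in vitro PSMPs replicate 2 (0.12), and that for SAHA without con-in vitro replicate 2 (0.052) or SAHA replicate 1 (0.0518).

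Chek2 (chr5:110839979-110874145, + strand), the kinase downstream of ATM, had 2 and 0 counts in con and none in con-in vitro. It had 14 counts in in vivo PSMPs, 38 and 43 in in vitro PSMPs, 115 and 152 in SAHA and 21 and 31 in PSMPs & OE-Hdac3, each more than in any control library. The libraries differ in depth, and in CPM in vivo PSMPs stood at 0.361, under the 0.82 and 0.89 CPM that a count of 0 allows in con-in vitro, so the order of those libraries cannot be told. As for Cdkn1a, the 4 controls are also the libraries with the fewest genes detected, and the part of this in the differences was not tested. SAHA was at least 17.8-fold higher than con-in vitro (edgeR adjusted p = 0.0287), and its ratio to con was 256 (70.2 to 2124; 0.0171). In vitro PSMPs was at least 7.68-fold higher than its control and just missed the threshold (edgeR adjusted p = 0.0542). It passed under some alternatives, among them DESeq2's Wald test (adjusted p = 0.00237) and edgeR with library totals (0.0254) or a filter at 50 counts (0.0414). Under others it did not pass. In vivo PSMPs against con had a ratio of 12.2 (interval 2.8 to 111, edgeR adjusted p = 0.244). The call for SAHA against con was lost without either SAHA library or any library of in vitro PSMPs or PSMPs & OE-Hdac3. That against con-in vitro was lost without any library of these 3 groups or of con-in vitro (0.0602 to 0.119).

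Atm (chr9:53439149-53536740, - strand) and Atr (chr9:95857597-95951781, + strand), the kinases at the head of the pathway, did not pass in any comparison. Atm had 46 and 0 counts in con, 100 in in vivo PSMPs, 0 in both con-in vitro libraries, 32 and 94 in in vitro PSMPs, 160 and 51 in SAHA and 102 and 50 in PSMPs & OE-Hdac3. It was at least 11.9-fold higher in in vitro PSMPs (edgeR adjusted p = 0.117) and at least 14.0-fold higher in SAHA (0.097) than in con-in vitro. Atr had 101 and 2 counts in con, 372 in in vivo PSMPs, 135 and 62 in con-in vitro, 195 and 318 in in vitro PSMPs, 244 and 286 in SAHA and 143 and 153 in PSMPs & OE-Hdac3. In CPM the control for culture held the highest Atr library, 40.1, beside 16.9 for its replicate, and con held the lowest, 3.51 and 0.0515 (adjusted p = 0.0796 between the controls).

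**Figure D3:**
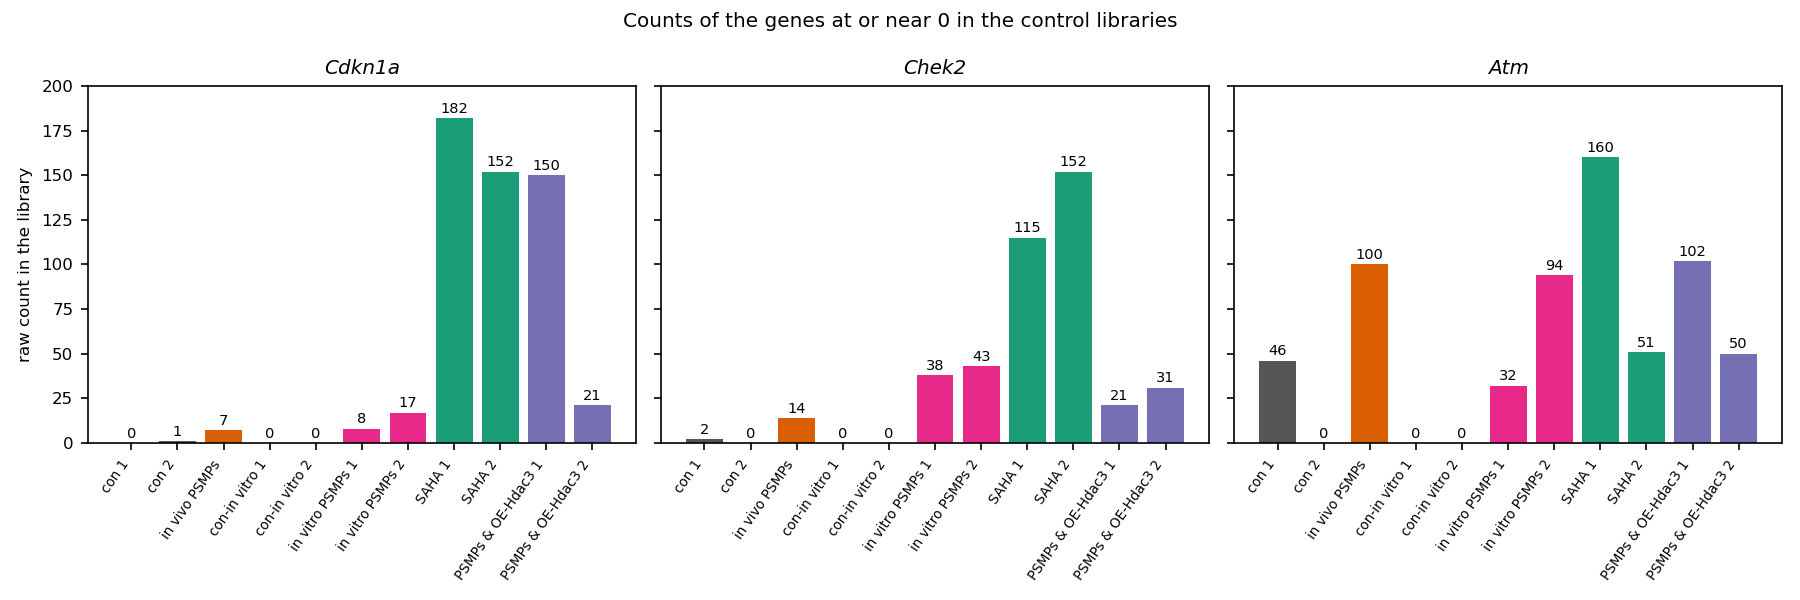
Raw counts (y axis) of Cdkn1a, Chek2 and Atm in each library (x axis), coloured by group, with the count printed over each bar; in vivo PSMPs is the rounded mean of its 2 columns. Control libraries hold 0 to 2 counts except for 46 of Atm in con replicate 1, on totals of 6.22 M to 35.6 M.

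Numbers of members called can be read against all genes tested. Exposure in culture went with 3 of the 10 members higher and none lower, against 8.57% of all genes higher and 6.78% lower; the members' median log2 fold change was 1.93 and that of all genes 0.71. SAHA against con-in vitro had 5 of 10 higher, against 11.7% higher and 8.14% lower, with medians of 2.25 and 0.66. SAHA against con had 2 of 10 higher, Cdkn1a and Chek2, a share near the 20.2% of all genes called higher (6.75% lower). Con-in vitro against con had 2 of 10 lower, Trp53 and Mdm2, with medians of -1.39 for the members and 0 for all genes. PSMPs & OE-Hdac3 against in vivo PSMPs called 0 of 10, beside 0% of all genes, higher or lower: edgeR found 2407 genes and 3 members at an unadjusted p under 0.05, and DESeq2 called 952 genes and 2 members. The comparisons with con-in vitro share its libraries, and their values are not independent of each other. Fitted on the groups of a comparison alone, the calls lost were Trp53 in the animal (edgeR adjusted p = 0.618), between controls (0.109) and for the difference of effects (0.0563), Mdm2 in culture (0.0592) and between controls (0.124), and Cdkn1a (0.052) and Chek2 (0.0917) for SAHA against con. The same fit passed Chek2 (0.0351) and Atm (0.0476) in culture and Atm for SAHA against con-in vitro (0.0446), and other members in the comparisons of PSMPs & OE-Hdac3. Mdm2 in culture was also lost with DESeq2 size factors (0.0504), and Trp53 in the animal with the filter read on merged libraries (0.0523).

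Per kb of gene length the 4 most abundant members kept their places but for a change at the top. Chek1 and Mdm4 held the top 2 places in all 11 libraries, Mdm2 came next and Trp53 after it in every library. Chek1 ranged from 36.9 CPM per kb in PSMPs & OE-Hdac3 to 374 in SAHA, and Mdm4 from 69.3 to 191. Mdm4 led in con-in vitro, in con replicate 2 and with overexpressed Hdac3, and Chek1 led in the other libraries. The remaining 6 members stayed at or below 5.91 CPM per kb, the value of Trp63 in con replicate 1, and their mutual order changed from library to library. In PSMPs & OE-Hdac3 replicate 1, for example, Cdkn1a (150 counts) and Trp73 (154) stood above Trp63 (227) per kb, while in con replicate 1 Trp63, with 1427 counts, led the 6.

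**Figure D4:**
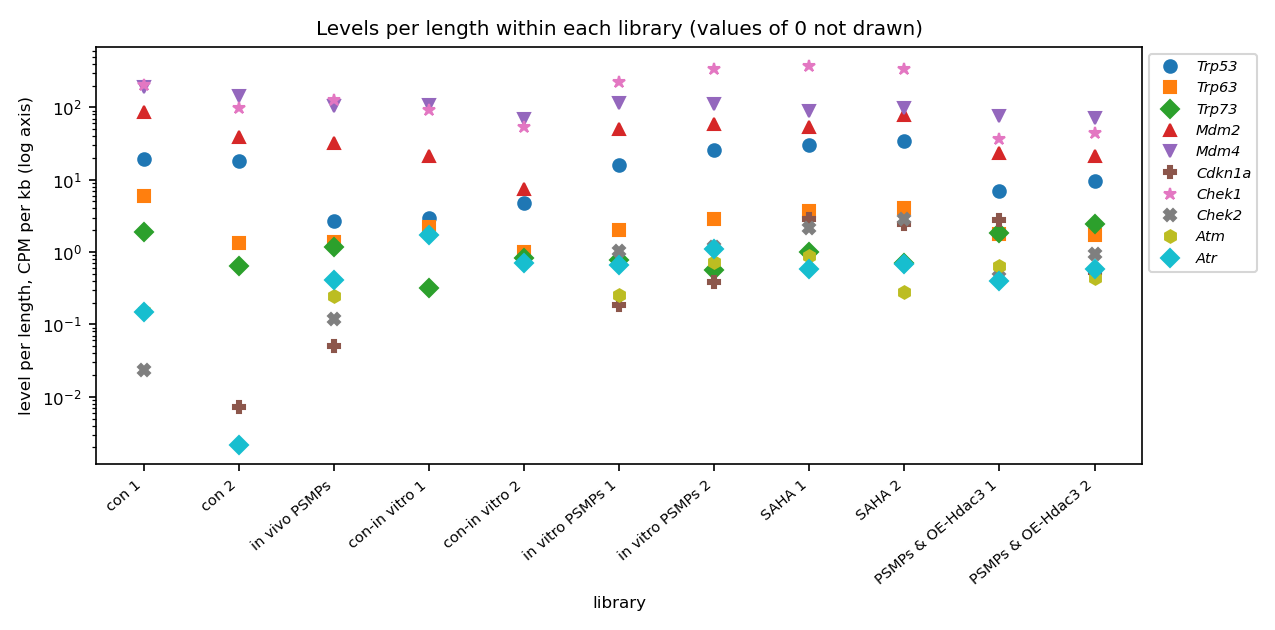
Level of the 10 genes per kb of gene length in each of 11 libraries (x axis), on a log y axis; values of 0 are not drawn. Chek1 and Mdm4 lie at the top, between 36.9 and 374 CPM per kb, Mdm2 and Trp53 follow, and the other 6 genes lie at 5.91 or below.

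The next 3 lists place the members in their pathway: 31 p53 targets, 25 of which passed the filter, 26 regulators and cofactors of p53 (23), and 33 partners of ATM and ATR (32). In vivo PSMPs against con called 1 gene of all of them, Atrip, the partner that brings ATR to single-stranded DNA, with 366 counts against 0 in con, at least 213-fold higher (edgeR adjusted p = 0.0453). That is 1.25% of the 80 genes tested, beside 4.59% of all genes called higher. Of the 14 granulosa markers tested, 12 were not called in this comparison, and Vcan, as given above, passed the filter only through in vivo PSMPs. The granulosa markers Inha and Vcan were called higher in the same comparison (0.0453 and 0.0484), and edgeR called 0 genes, Atrip included, when any 1 library of SAHA or PSMPs & OE-Hdac3 was left out (3779 to 3920 genes at an unadjusted p under 0.05) or on the groups alone (433). Over the 3 lists exposure in culture called 5% higher and 8.75% lower, beside 8.57% and 6.78% of all genes. It called 2 p53 targets higher and 2 lower. Rps27l, a small ribosomal protein gene, stood at 273 against 32.6 CPM (log2 3.07 ± 0.45, 0.00241), and Ccng1, which encodes cyclin G1, at 104 counts against 0, at least 9.86-fold higher (0.0188). Btg2, an antiproliferative gene, stood at 18.4 against 153 CPM (-3.05 ± 0.57, 0.00806) and Gadd45a, a stress and repair gene, at 2.47 against 76.4 CPM (-4.95 ± 0.94, 0.00869). The list did not move one way: its median was 0.76 and that of all genes 0.71.

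The regulators in culture counted 1 higher, Rpl11, a ribosomal protein that can bind Mdm2 (62.3 against 13.0 CPM, log2 2.26 ± 0.60, edgeR adjusted p = 0.0359), and 3 lower, among them the acetyltransferase gene Crebbp (94.0 against 427 CPM, -2.18 ± 0.37, 0.00453). Of the checkpoint partners Tipin, which supports Chek1 activation at replication forks, was higher (207 against 22.2 CPM, 3.22 ± 0.61, 0.00834), and Bard1, the partner of Brca1, and Cdc25a, a phosphatase that Chek1 marks for destruction, were lower (-2.04 ± 0.51 and -2.07 ± 0.56). SAHA against con-in vitro, which shares its control, had 3 p53 targets higher and 2 lower, and 1 higher and 4 lower regulators and 3 higher and 3 lower partners, or 8.75% higher and 11.2% lower beside 11.7% and 8.14% of all genes. H2ax, the histone variant phosphorylated at breaks, was lower with SAHA than in con-in vitro (7.06 against 48.0 CPM, -2.76 ± 0.53, 0.0072).

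SAHA against con called 2 targets higher and 1 lower, 4 regulators higher and 3 lower, and 5 partners higher and 3 lower, in all 13.8% higher and 8.75% lower beside 20.2% and 6.75% of all genes. The genes called in this comparison dropped from 4511 to 204 without SAHA replicate 1 and to 266 without SAHA replicate 2. Pmaip1, the BH3-only death gene Noxa, had 108 counts with SAHA and 0 in con, at least 69.0-fold higher (edgeR adjusted p = 0.0171), Trim28, a corepressor that works with Mdm2, was lower (71.7 against 497 CPM, log2 -2.79 ± 0.49, 0.00945), and Timeless, the partner of Tipin, was higher (189 against 27.6 CPM, 2.78 ± 0.73, 0.0244). With overexpressed Hdac3 against in vitro PSMPs 3 targets were lower and none higher: Rrm2b, a ribonucleotide reductase subunit (55.7 against 331 CPM, -2.57 ± 0.44, 0.0169), Trp53inp1 (26.7 against 136 CPM, -2.34 ± 0.50, 0.0333) and Rps27l (79.7 against 273 CPM, -1.78 ± 0.43, 0.0498). Of the others 1 regulator, Csnk1d, and 1 partner, the ubiquitin ligase gene Rnf8, were higher, and Wee2, the oocyte kinase that holds meiotic arrest, was lower (283 against 852 CPM, -1.59 ± 0.30, 0.0209). The 6 calls are 2.5% higher and 5% lower, beside 1.85% and 2.98% of all genes. None of these calls held without either overexpressing library, where edgeR called 0 genes in all (1721 and 1872 at an unadjusted p under 0.05), and without in vitro PSMPs replicate 2 it called 1 of all genes, against 808 with every library. Against in vivo PSMPs no gene of the 3 lists was called.

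Con-in vitro against con had 2 targets higher and 3 lower, 6 regulators higher and 2 lower, and 7 partners higher and 4 lower, or 18.8% higher and 11.2% lower, near the 14.7% and 10.5% of all genes. Btg2 (log2 3.05 ± 0.57) and Crebbp (2.15 ± 0.37) were higher in con-in vitro than in con, and Tipin (-3.09 ± 0.60), Rpl11 (-2.25 ± 0.60) and Rps27l (-2.83 ± 0.45) were lower; the con-in vitro libraries are also the control of the exposure in culture. Cdc25a read 140 CPM in con-in vitro and 5.43 in con (log2 4.69 ± 0.63, edgeR adjusted p = 0.00133).

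**Figure D5:**
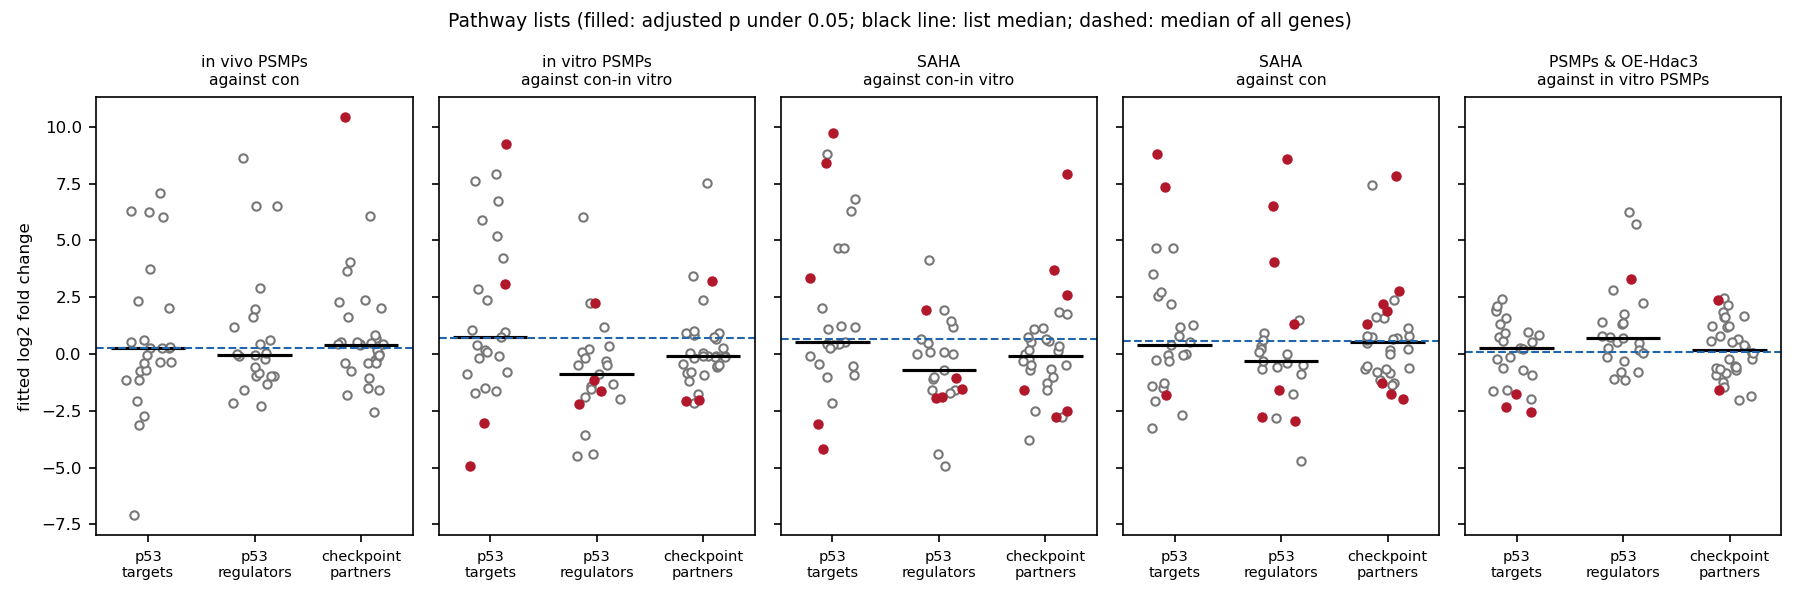
Fitted log2 fold change (y axis) of each tested gene of the 3 lists in 5 comparisons, with the list median (black line) and the median of all genes (dashed); filled points passed the adjusted p threshold, and points beyond about 6 mostly have a group at or near 0 counts, where the fitted size depends on the prior count. The panel for exposure in culture shows the p53 targets at a median of 0.76, beside 0.71 for all genes.

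The genes closest to Trp53 in pattern over the 11 libraries, among 7162 genes with a mean of at least 10 CPM, were Ppp6c, a protein phosphatase subunit (Pearson r of log2 CPM 0.984), Trav7n-6 (0.981) and Dguok, deoxyguanosine kinase of mitochondria (0.978). Those closest to Chek1 were Nlrp9c, a member of an oocyte-expressed family (0.989), Tex12, a protein of the meiotic synaptonemal complex (0.985), and Nedd1, a centrosome protein (0.98). The libraries of a group share their treatment, and con-in vitro shares a low TMM factor, so these values describe likeness in 6 groups and carry no test.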

How the data were processed

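RNA sequencing counts of mouse oocytes were used in 12 columns of 6 groups. The table holds whole-number counts per gene as deposited by the authors, beside gene lengths and coordinates of other kinds (chromosome, start, end, strand), per the file headers. The submitters' processing notes name Bowtie2 2.2.5, deepTools 3.5.1, fastp 0.12.4, featureCounts, HISAT2, DESeq2, Picard, SAMtools and mm10, with no role, and a strand setting is not given in the sources used here. Chromatin libraries of the series were not analysed here.

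Columns that differed by less than counting noise (in vivo PSMPs) were merged to their rounded mean. With R 4.3.3 and edgeR 4.0.16, genes were kept by the expression filter (minimum count 10, read on the 12 columns; 16736 genes), scaled by TMM, and fitted by the robust quasi-likelihood model with 1 coefficient per group over 11 libraries (5 residual degrees of freedom, biological coefficient of variation 71.9%). P-values were Benjamini-Hochberg adjusted over all genes; SEs are the fold change divided by the root of F. A single merged library is assumed to vary like the other groups. The script was tested on simulated data. The floor of 3 counts came to 0.0773 to 0.89 CPM per library, and intervals are exact and cover counting error only.

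The 10 genes and the lists were chosen with earlier results of these data known. All members are named; of each list, each comparison names at most 4 genes past the threshold with the smallest adjusted p. The 3 genes nearest in pattern to Trp53 and to Chek1 had a mean of at least 10 CPM, on log2(CPM + 1). Trp53rk had no row of that name. Alternatives were other scalings, filters, DESeq2 1.42.0, separate columns with and without a replicate block, each comparison's groups alone and each library left out. The fits on fewer columns read the filter again on those columns, so the genes kept can differ. The part of this in their results was not tested. The filter on merged libraries and DESeq2's likelihood ratio test were added after seeing the data. Promoters came from the RefSeq table (GRCm38.p6).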

Additional observations from a re-analysis of the deposited data

Results flagged for a closer look

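The exposure effects on Trp53 differed between the animal and culture. The effect in culture minus the effect in the animal was 5.20 ± 0.79 on the log2 scale (edgeR adjusted p = 0.00558), from levels of 11.0 CPM after exposure in the animal (con 73.4 and 78.4) and of 64.4 and 103 CPM after exposure in culture (con-in vitro 11.9 and 19.4). Trp53 was the only one of the 10 genes past the threshold for this difference. In vivo PSMPs counted as 1 library. Trp53 also differed between the controls, at -2.28 on the log2 scale for con-in vitro against con, and in vitro PSMPs overlapped con. Fitted on the 4 groups alone the difference was 5.56 with an adjusted p of 0.0563, and over the other alternatives the adjusted p stayed past the threshold.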

How the results depend on the processing

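Over the alternatives, the 15 calls of single members kept their side of the threshold in 252 values and lost it in 63, and none changed direction; differences not called stayed so in 1275 values and passed in 85. The numbers of members called moved as follows, in place of 1 in the animal, 3 in culture, 5 and 2 for SAHA against con-in vitro and con, 1 and 0 for PSMPs & OE-Hdac3 against in vitro and in vivo PSMPs, 2 between controls, 1 for the difference of effects and 4 for any difference. Numbers not named for a setting did not move. With DESeq2's Wald test they were 5 in culture, 6 and 4 for SAHA against con-in vitro and con, 2 and 2 for PSMPs & OE-Hdac3 against in vitro and in vivo PSMPs, 3 between controls and 3 for the difference, and its likelihood ratio test gave 5 for any difference. With library totals they were 5 in culture, 4 for SAHA against con, 4 between controls, 4 for the difference and 6 for any difference. Without a filter they were 3 for SAHA against con, 4 between controls, 3 for the difference and 5 for any difference, and with a filter at 50 counts 4 in culture, 3 for SAHA against con and 3 between controls. On the groups of a comparison alone they were 0 in the animal, 4 in culture, 6 and 0 for SAHA against con-in vitro and con, 5 and 6 for PSMPs & OE-Hdac3 against in vitro and in vivo PSMPs, 0 between controls and 0 for the difference. With the in vivo PSMPs columns kept as 2 libraries they were 4 in culture, 4 for SAHA against con, 3 for PSMPs & OE-Hdac3 against in vivo PSMPs, 3 between controls, 3 for the difference and 6 for any difference. With the filter read on merged libraries it was 0 in the animal, and with DESeq2 size factors 2 in culture. The number of all genes called moved as well. In culture it was 2570 in the main fit, 4849 with DESeq2's Wald test and 4231 with library totals. For SAHA against con-in vitro it was 3313, 5578 and 4144 in the same order. On the groups alone it was 5491 for PSMPs & OE-Hdac3 against in vitro PSMPs, beside 808 in the main fit. For SAHA against con it was 1450 beside 4511, and between controls 836 beside 4205. The cause of these moves was not tested. Where only the groups of a comparison were fitted, there were fewer samples and the filter was read on those groups.

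Same-numbered libraries did not deviate together: the correlation of their deviations was -0.202 to 0.0358 over 15 pairs of groups, 0 above 0.1. No pairing by number was seen. The check cannot exclude one, because each group gives 1 deviation and the in vivo PSMPs columns differ by less than counting noise. The replicate block was fitted with the in vivo PSMPs columns kept as 2 libraries. Its numbers were 4 in culture, 4 for SAHA against con, 3 between controls, 3 for the difference and 6 for any difference. The fit on 2 libraries without a block, given above, gave these same numbers. It also gave 3 for PSMPs & OE-Hdac3 against in vivo PSMPs, where the fit with the block gave 0. Why the block moved this number was not tested. Leaving out each library in turn gave 0 to 3 members called in the animal, 0 to 5 in culture, 1 to 6 for SAHA against con-in vitro, 0 to 5 against con, 0 to 1 for PSMPs & OE-Hdac3 against in vitro PSMPs, 1 to 7 between controls, 1 to 4 for the difference and 2 to 7 for any difference. Over all genes, the fit on its groups alone called 0 in the animal, where 817 were called in all groups, and 7215 for PSMPs & OE-Hdac3 against in vivo PSMPs. Leaving out each library in turn, edgeR called 0 to 4192 genes in the animal, 1040 to 5393 in culture, 1071 to 6375 and 204 to 6638 for SAHA against con-in vitro and con, 0 to 2331 and 0 to 513 for PSMPs & OE-Hdac3 against in vitro and in vivo PSMPs, and 2521 to 6572 between controls. Scaling by library totals moved the median gene from 0.71 to 1.70 in culture, from 0.66 to 1.37 for SAHA against con-in vitro and from 0.25 to 0.58 in the animal. The floor of 0.82 and 0.89 CPM in con-in vitro limits what can be said of Cdkn1a, Chek2 and Atm there.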
